A study of Oryza sativa with 10 samples.

Results

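The regions described here are the stretches of the rice genome that held capture peaks of the small molecule BioCyTASQ in vitro and none of the other captures of the series. To find them, the distinct rows of the peak lists named for the BioCyTASQ capture in vitro and for the BioTASQ captures in vitro and in vivo were pooled, and rows that overlapped by at least 1 bp were joined into regions. Of 87915 joined regions, 15797 (18.0%) held BioCyTASQ rows only. Each of these 15797 regions was a single row of the BioCyTASQ list, so they made up 31.7% of its 49898 rows, and the other 34101 rows lay in regions shared with another list. The regions were chosen by the presence of a peak call in the BioCyTASQ list and its absence from the others. Fold enrichment, q value, width and the levels derived from them come from the contrast that made the choice, and are given as a description without a test.

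The material was seedlings of the rice cultivar Nipponbare, 2 weeks old, cross-linked with 1% formaldehyde for 10 min. The BioCyTASQ in vitro group, the BioTASQ in vitro group and the BioTASQ in vivo group had 2 libraries each, described as biological replicates in the labels' protocols, and each of the vitro and vivo sets had 1 library of biotin alone and 1 of input, which made 10 libraries. The labels state only vitro or vivo, and the protocol text given for all groups describes capture from fragmented chromatin with BioTASQ and streptavidin beads. The lists are 1 per capture and none per library, so no value has an error between replicates. The spread over the 12 chromosomes is given in its place, which tells how even a value was across the genome and nothing of variation between plants.

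G-quadruplexes are stacked structures that guanine-rich single strands can fold into, built from planar quartets of guanines and held by potassium ions. In plant genomes the sequence motifs that can form them lie in genes, promoters and repeats. TASQs, template-assembled synthetic G-quartets, carry guanines that can assemble into a synthetic quartet and stack on a quadruplex, and the biotin of BioTASQ and BioCyTASQ lets streptavidin beads pull the bound DNA out. BG4 is a single-chain antibody against the same structures that is used with a FLAG tag.

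What counts as absent from the other lists limits the description. The list deposited for BioTASQ in vitro and the list deposited for BG4 held the same 29469 rows, and 0 rows differed. The rows carry names that start with K_PEG_flag, while the names of the BioCyTASQ list start with BiocyTASQ_vitro_biotin and those of the in vivo list with Vivo_biotin3. Whether that shared list is the BioTASQ or the BG4 capture cannot be told apart here, and it is called the BG4/BioTASQ in vitro list. A comparison of the related baits BioCyTASQ and BioTASQ under the same in vitro label therefore could not be made with certainty. The in vivo list carried most of the rule, since 38309 regions would count as BioCyTASQ-only without it, and 19796 without the BG4/BioTASQ in vitro list. Joining rows up to 500 bp apart left 10489.

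BioCyTASQ-only regions were narrow and of modest enrichment. Their fold enrichment, the authors' ratio of a peak to its control, had a median of 3.31, with the middle of the distribution between 2.69 and 4.38 at the quartiles, and ran from 1.27 to 15.2. BioCyTASQ rows in shared regions had a median of 4.31 and quartiles of 3.06 and 6.28. The distributions overlapped widely, and the median of the BioCyTASQ-only rows was the lower on 12 of 12 chromosomes, with differences from −1.15 to −0.803. The chromosome medians of the BioCyTASQ-only rows stayed between 3.19 on chromosome 12 and 3.45 on chromosome 3 (mean 3.32 ± 0.078, SD, n = 12 chromosomes).

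Shared rows were not of 1 kind. BioCyTASQ rows shared with BioTASQ in vivo alone had a median fold enrichment of 5.08 and rows in regions of all 3 lists 3.75, both above the 3.31 of the BioCyTASQ-only rows. Rows shared by the BG4/BioTASQ in vitro list alone had 2.98, below it. By −log10 q the BioCyTASQ-only rows had a median of 8.90, next to 8.26 for rows shared by the BG4/BioTASQ in vitro list alone, and far under 28.7 for rows shared with BioTASQ in vivo alone and 28.2 for rows in all 3 lists. In strength the BioCyTASQ-only rows thus lay near the rows shared by the BG4/BioTASQ in vitro list alone.

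**Figure D1:**
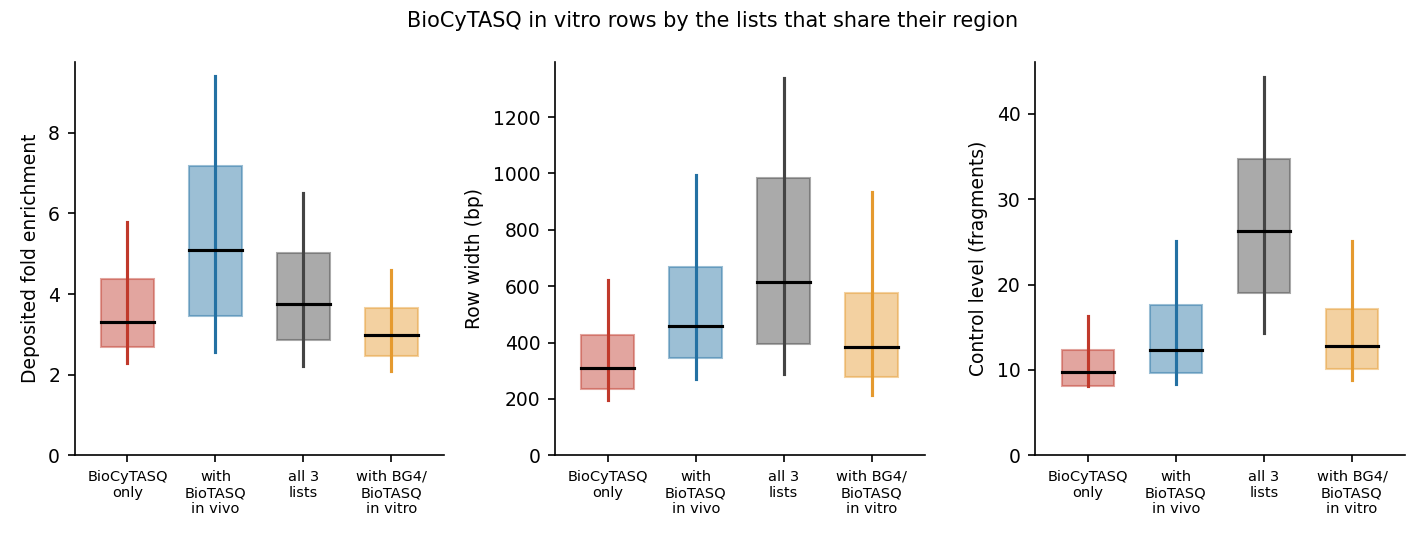
Deposited fold enrichment (left), row width in bp (middle) and control level in fragments (right) of BioCyTASQ in vitro rows, by the lists that hold their region. Boxes span the quartiles, black lines are medians and thin lines run from percentile 10 to percentile 90; BioCyTASQ-only rows have the lowest medians in width (309 bp) and control level (9.77 fragments) of the kinds shown, while their median fold enrichment of 3.31 lies above that of rows shared by the BG4/BioTASQ in vitro list alone.

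Few of the regions reached a high enrichment. A fold enrichment of at least 8 was found in 305 BioCyTASQ-only rows (1.93%), against 4301 shared rows (12.6%), and a fold enrichment of at least 10 in 55 (0.348%), against 1736 shared rows (5.09%). The shared kinds differed: a fold enrichment of at least 8 was found in 18.1% of the rows shared by BioTASQ in vivo alone, in 3.53% of the rows in all 3 lists and in 0.712% of the rows shared by the BG4/BioTASQ in vitro list alone, the last below the 1.93% of the BioCyTASQ-only rows. The 305 strong rows lay on all 12 chromosomes, with most on chromosome 3, where there were 36. At the weak end, 950 BioCyTASQ-only rows (6.01%) had a −log10 q below 3, against 943 shared rows (2.77%), among them 6.23% of those shared by the BG4/BioTASQ in vitro list alone. The lists had different thresholds. The lowest −log10 q was 1.31 in the BioCyTASQ list, but 3.0 in the BG4/BioTASQ in vitro list and 3.01 in the in vivo list. A −log10 q of at least 3 was reached by 48005 (96.2%) of all BioCyTASQ rows. Peaks of the other captures below their thresholds are not in the lists, and their part in the absence was not tested.

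Width set the BioCyTASQ-only rows apart from each shared kind in the medians. They were 309 bp wide at the median, with quartiles of 235 and 427 bp, against 474 bp, 343 bp and 733 bp for shared rows. Median width was 458 bp in rows shared with BioTASQ in vivo alone and 615 bp in rows of all 3 lists. It was nearest in rows shared by the BG4/BioTASQ in vitro list alone, at 384 bp. The chromosome medians of the BioCyTASQ-only rows ran from 298 to 316 bp. A wide row has more room to touch a row of another list, so width is not independent of the rule. The regions covered 5.91 Mb, 21.7% of the 27.3 Mb under BioCyTASQ rows. Broad rows of at least 1500 bp were rare, 91 (0.576%) of the BioCyTASQ-only rows against 1667 (4.89%) of the shared rows, and rows narrower than 200 bp were 1783 (11.3%) against 787 (2.31%). Among rows shared by the BG4/BioTASQ in vitro list alone, 2.42% were broad and 6.23% narrower than 200 bp.

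The number of fragments behind a row could be recovered from the deposited fold enrichment and −log10 p, which together give the pileup at the summit and the level that the peak caller expected there from its control. BioCyTASQ-only rows had a median pileup of 38 fragments, against 78 for shared rows, and quartiles of 29 and 53. Rows shared by the BG4/BioTASQ in vitro list alone were close to this, with a median of 42 fragments and quartiles of 33 and 56. The median control level was 9.77 fragments in BioCyTASQ-only rows, against 14.4 in shared rows. It was 12.4 in rows shared with BioTASQ in vivo alone, 12.8 in rows shared by the BG4/BioTASQ in vitro list alone and 26.3 in all 3 lists. The lowest level in the list was 8.14 fragments, the floor that the caller uses where the local control is no higher than the genome average. Within 1% of that floor lay 4069 BioCyTASQ-only rows (25.8%), against 2365 shared rows (6.94%). The share was 9.56% of rows shared with BioTASQ in vivo alone and 6.08% of rows shared by the BG4/BioTASQ in vitro list alone. In regions of all 3 lists only 22 rows (0.269%) were at the floor. A control level of at least 30 fragments was found in 206 BioCyTASQ-only rows (1.30%), against 4559 shared rows (13.4%) and 3038 (37.2%) of the rows in all 3 lists. Such levels were found in 5.75% of rows shared with BioTASQ in vivo alone and 6.51% of those shared by the BG4/BioTASQ in vitro list alone.

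Ranked by pileup, control level or width, BioCyTASQ rows passed from mostly unshared to mostly shared. All BioCyTASQ rows were put into 5 groups of equal size. By pileup, 66.5% (SD 2.77, n = 12 chromosomes) of the rows in the lowest group were BioCyTASQ-only and 1.52% (SD 0.607) of those in the highest. By control level the shares were 58.9% (SD 3.25) and 6.52% (SD 1.17), and by width 61.3% and 10.5%. By fold enrichment the share did not fall steadily. It was 40.8% in the weakest group, 44.3% in the next, then 35.4%, 25.6% and 12.2%.

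**Figure D2:**
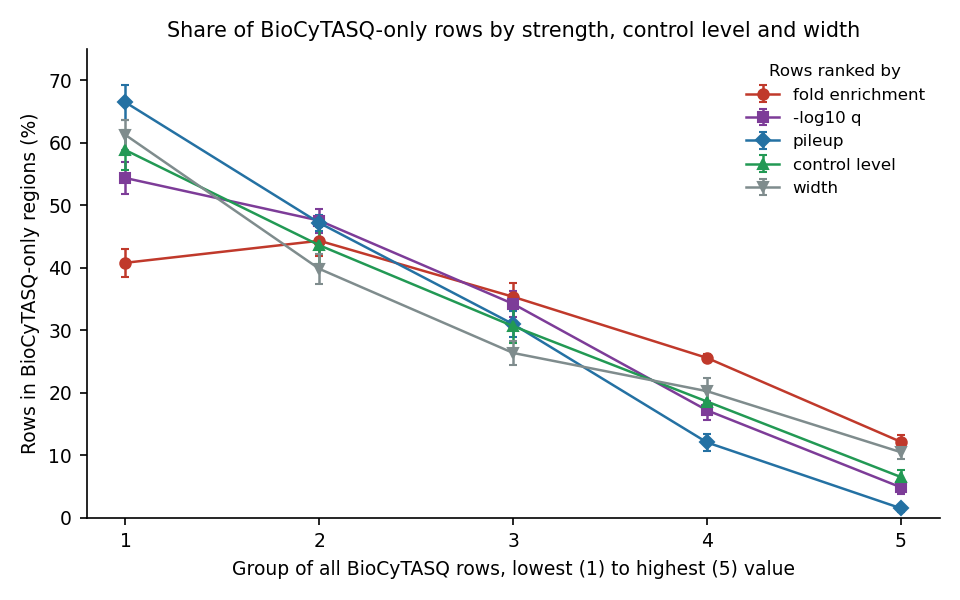
Percentage of BioCyTASQ in vitro rows that lie in BioCyTASQ-only regions, in 5 equal groups of all 49898 rows ranked from low to high by fold enrichment, −log10 q, recovered pileup, recovered control level or width. Bars are the SD over 12 chromosomes; the steepest fall is along pileup, from 66.5% to 1.52%, and the fold enrichment line peaks in the second group at 44.3%.

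The control level separated the rows within each band of fold enrichment as well. Each of the 5 groups by fold enrichment was cut into 5 by control level. In the weakest group, 76.8% of the rows with the lowest control levels were BioCyTASQ-only and 8.37% of those with the highest. In the middle group the shares were 71.6% and 1.45%. In the strongest group they were 28.2% and 1.35%. At a like fold enrichment, BioCyTASQ-only rows were thus most frequent where few fragments stood over a low control. Control level and pileup rise together at a given fold enrichment, so these shares do not tell them apart. Their part in the absence from the other lists was not tested.

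A few members ran against this description. The highest control levels were at chromosome 6, 15425853 to 15426178, with 1033 fragments under a pileup of 1615 and a fold enrichment of 1.56, and at chromosome 10, 10837663 to 10837851, with 489 fragments under a pileup of 1050 and a fold enrichment of 2.15. Both rest on large fragment numbers and a small ratio. They were picked out after their values were seen.

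The distance to the rows of the other captures varied widely. The gap to the nearest row of either other list had a median of 1141 bp, with quartiles of 578 and 2753 bp, and the chromosome medians ran from 1055 bp on chromosome 4 to 1229.5 bp on chromosome 11. The median was 1760 bp with rows up to 500 bp apart joined, 2327 bp with equal numbers of the strongest rows and 4432 bp without the in vivo list. Within 500 bp there were 3423 regions (21.7%), within 1 kb 7119 (45.1%) and within 5 kb 14001 (88.6%). Of all bases outside the rows of the other lists, 18.7% lay within 500 bp of such a row, 32.8% within 1 kb and 83.7% within 5 kb. The regions' shares were above each of these, and no test was made of the difference. The measures are not alike, since a region was measured from its nearer edge and a base from itself. More than 10 kb away were 320 regions (2.03%), against 3.44% of those bases, and more than 20 kb away 23. The nearest in vivo row was 1558 bp away at the median and the nearest BG4/BioTASQ in vitro row 3700 bp, and 10862 regions (68.8%) were nearer to an in vivo row. The in vivo list has 57500 rows and the BG4/BioTASQ in vitro list 29443 distinct rows, so a shorter gap to the in vivo list also comes with its greater density.

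**Figure D3:**
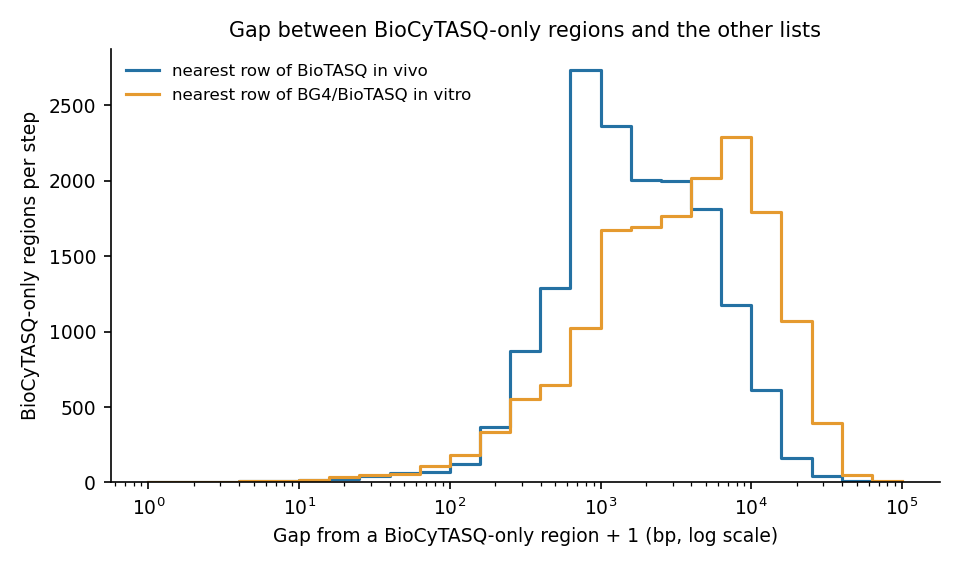
Number of BioCyTASQ-only regions by the gap to the nearest row of the BioTASQ in vivo list and of the BG4/BioTASQ in vitro list, in equal steps of the log scale, with 1 bp added to each gap. The gaps to in vivo rows are shorter, with a median of 1558 bp, than those to BG4/BioTASQ in vitro rows, with a median of 3700 bp, and few regions lie within 100 bp of either.

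The regions at the edge of the rule were few. Only 9 regions touched a row of another list without sharing a base, and 69 (0.437%) had a gap of 0 to 10 bp. On the other side of the rule, 81 shared rows were overlapped by 1 to 10 bp in all. Median fold enrichment was 3.02 in the 69 regions just inside the rule and 2.77 in the 81 rows just outside it. Shared rows were in general well covered, 73.4% of their length at the median, and 362 (1.06%) were covered over less than 10% of their length.

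Regions far from the other lists had no lower medians of enrichment than those close by. The regions were put into 5 groups of equal size by gap. In the group with the longest gaps, 3374 bp and more, median fold enrichment was 3.72 and median −log10 q 11.3, against 3.17 and 8.58 in the group with gaps up to 456 bp. Median width was 296 bp in the far regions and 302 bp in the near ones. The median control level was 9.18 fragments in the far regions and 10.5 in the near ones. The farthest region was at chromosome 11, 6580906 to 6581106, 48712 bp from the nearest in vivo row and 99100 bp from the nearest BG4/BioTASQ in vitro row, with a fold enrichment of 2.84 on 25 fragments. The next lay side by side on chromosome 10 at 4149396 to 4149593 and 4147732 to 4148062, 43276 and 43232 bp from an in vivo row, with fold enrichments of 3.72 and 4.91.

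Among the strongest 10% of the regions by fold enrichment, 1579 regions at 5.80 and above, those nearest to another list's row were at chromosome 7, 23748156 to 23748532, which touched an in vivo row, at chromosome 12, 3908890 to 3909354, and chromosome 3, 24314947 to 24315299, each 2 bp from a row, at chromosome 4, 3670410 to 3670814, 3 bp away, and at chromosome 3, 22258843 to 22259172, 12 bp away. Their fold enrichments were 6.61, 6.86, 6.54, 7.63 and 7.33. The neighbour was an in vivo row in 4 of these 5 regions and a BG4/BioTASQ in vitro row in the chromosome 3 region at 24314947. Such regions count as BioCyTASQ-only by a few bases.

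BioCyTASQ's own rows were close neighbours too. A BioCyTASQ row lay within 1 kb of 7901 of the regions (50.02%), against 14722 (43.2%) of the shared rows, and the median gap to the nearest BioCyTASQ row was 1000 bp for the regions and 1361 bp for shared rows. For 4767 regions (30.2%) that neighbour within 1 kb was a shared BioCyTASQ row. In the order of all joined regions along a chromosome, 25.8% of the regions next to a BioCyTASQ-only region were BioCyTASQ-only themselves, while such regions were 18.0% of all. Regions of BioTASQ in vivo alone were 17.5% of the neighbours and 25.2% of all regions, and regions of the BG4/BioTASQ in vitro list alone 11.9% and 15.1%.

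Some BioCyTASQ-only regions followed each other in runs with no region of another kind between them. There were 8890 (56.3%) with no BioCyTASQ-only region on either side, 2040 runs of 2, and 112 runs of at least 5, which held 640 regions (4.05%). The longest runs had 11 regions each. On chromosome 5, 1 of them ran from 12939735 to 12982980, over 43.2 kb, with fold enrichments from 2.52 to 7.66. The other ran from 29925573 to 29935169, over 9.60 kb, with fold enrichments from 3.47 to 6.92, and ended 22.0 kb before the last row on that chromosome. A run of 10 regions was on chromosome 11 at 12100430 to 12119307, with fold enrichments from 3.31 to 5.67.

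The end of chromosome 5 with the second of these runs held more of the regions than the other chromosome ends, a description made after the data were examined. The last 200 kb of chromosome 5 had 44 BioCyTASQ-only regions among 70 BioCyTASQ rows, or 62.9%. Over all 24 chromosome ends of that length the median was 7 regions. The next highest number was 29 at the start of chromosome 6, among 57 rows. The share was less set apart than the number. It was 40.6% over the 24 ends together, 58.3% at the start of chromosome 2 and 51.7% at the end of chromosome 1. At the start of chromosome 11, 9 of 15 BioCyTASQ rows were BioCyTASQ-only. The lowest share was 13.3%, at the start of chromosome 8. The 44 regions had fold enrichments of 1.60 to 6.92 with a median of 3.95, and 5 of them were at least 1500 bp wide. The widest BioCyTASQ-only region of the genome was among them, 4872 bp at 29840625 to 29845496, with a fold enrichment of 6.32 on a pileup of 313 fragments over a control level of 48.7. The next widest were 3663 bp on chromosome 5 at 11525036 to 11528698 and 3277 bp on chromosome 12 at 26822811 to 26826087, with fold enrichments of 3.36 and 3.16.

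The regions lay on every chromosome at 42.8 ± 4.57 per Mb (mean ± SD, n = 12 chromosomes). The density was lowest on chromosome 3, at 34.5 per Mb, and highest on chromosome 5, at 49.1, followed by chromosome 4 with 47.6 and chromosome 10 with 46.9. As a share of BioCyTASQ rows, they varied less, from 29.2% on chromosome 3 to 34.0% on chromosome 5 (mean 31.7% ± 1.32). Numbers ran from 1001 on chromosome 9 to 1691 on chromosome 4.

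Along the chromosomes the regions followed the density of BioCyTASQ rows. With each chromosome cut into 10 equal parts, they were densest in part 4, at 56.5 ± 14.4 per Mb, and sparsest in part 10, at 33.7 ± 7.27 per Mb (SD, n = 12 chromosomes). All BioCyTASQ rows had 165 ± 33.7 and 106 ± 13.7 per Mb in the same parts. The share of BioCyTASQ rows that were BioCyTASQ-only stayed between 29.9% and 33.9% in the means of all 10 parts, with SDs of 2.13 to 3.84 percentage points, a range of about the spread between chromosomes.

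**Figure D4:**
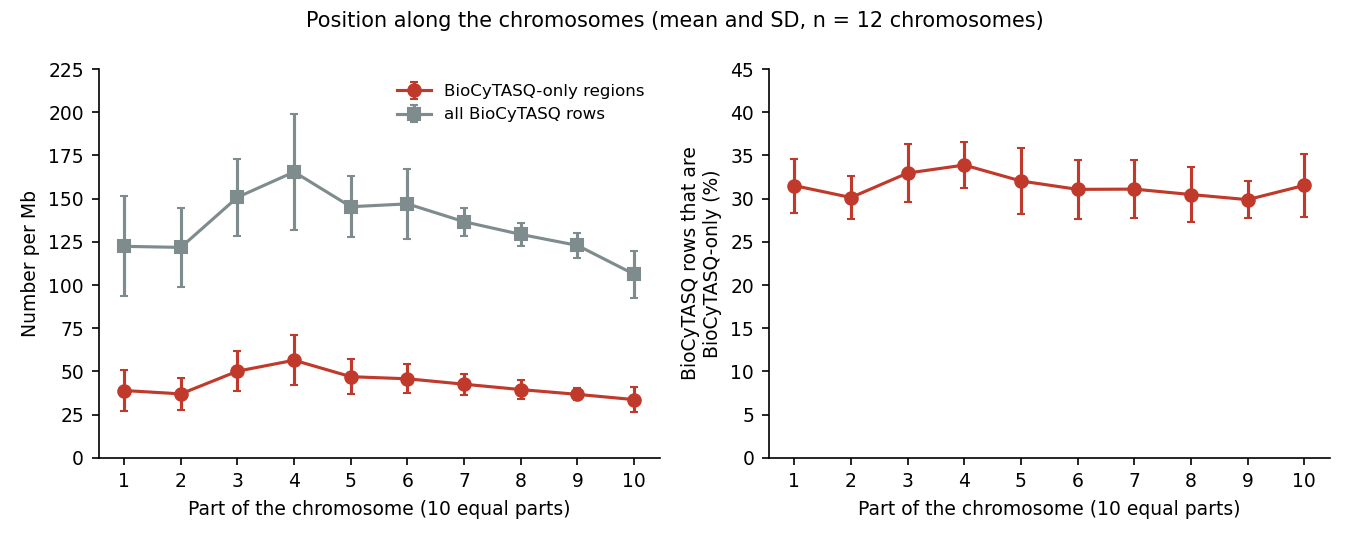
Left, BioCyTASQ-only regions and all BioCyTASQ rows per Mb in 10 equal parts of the chromosomes; right, the share of BioCyTASQ rows that are BioCyTASQ-only. Points are means and bars SDs over 12 chromosomes; density is highest in part 4, at 56.5 regions per Mb, while the share stays between 29.9% and 33.9%.

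In 367 full bins of 1 Mb the number of regions had a median of 39 and ran from 18 to 100. Their share of the BioCyTASQ rows in a bin had a median of 30.7% and ran from 18.7% to 46.2%. Percentiles 10 and 90 of that share were 25.1% and 37.5%. The richest bins were on chromosome 5 from 10 to 11 Mb with 100 regions, on chromosome 5 from 9 to 10 Mb with 96, and on chromosome 4 from 3 to 4 Mb with 95. There the regions were 38.0%, 42.7% and 39.4% of the BioCyTASQ rows, and their median fold enrichments were 3.13, 3.19 and 3.14. The bin on chromosome 4 lies in a short arm that is known in rice as largely heterochromatic. The bins with the fewest regions were on chromosome 11 from 5 to 6 Mb with 18, on chromosome 12 from 0 to 1 Mb with 19, and on chromosome 11 from 2 to 3 Mb with 19, where they were 23.1%, 22.9% and 22.6% of the BioCyTASQ rows.

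Bins rich in BioCyTASQ-only regions were also rich in regions that all lists shared. Across the 367 bins the number of BioCyTASQ-only regions rose with that of regions of all 3 lists (Spearman's rho 0.637, Pearson's r 0.694) and with that of regions shared by the BG4/BioTASQ in vitro list alone (rho 0.613, r 0.676). The rank correlation with regions of all 3 lists was positive on every chromosome, from 0.448 to 0.765. It was weaker with regions shared with BioTASQ in vivo alone (rho 0.218, from −0.289 to 0.504 by chromosome), and negative with regions of BioTASQ in vivo alone (rho −0.294, from −0.495 to 0.166 by chromosome). With regions of the BG4/BioTASQ in vitro list alone it was negative too (rho −0.227, from −0.398 to 0.204 by chromosome). Bins share libraries and control with their neighbours, and may share base composition, which was not analysed. A region can be of only 1 kind, so these values describe the map and are given without a test.

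**Figure D5:**
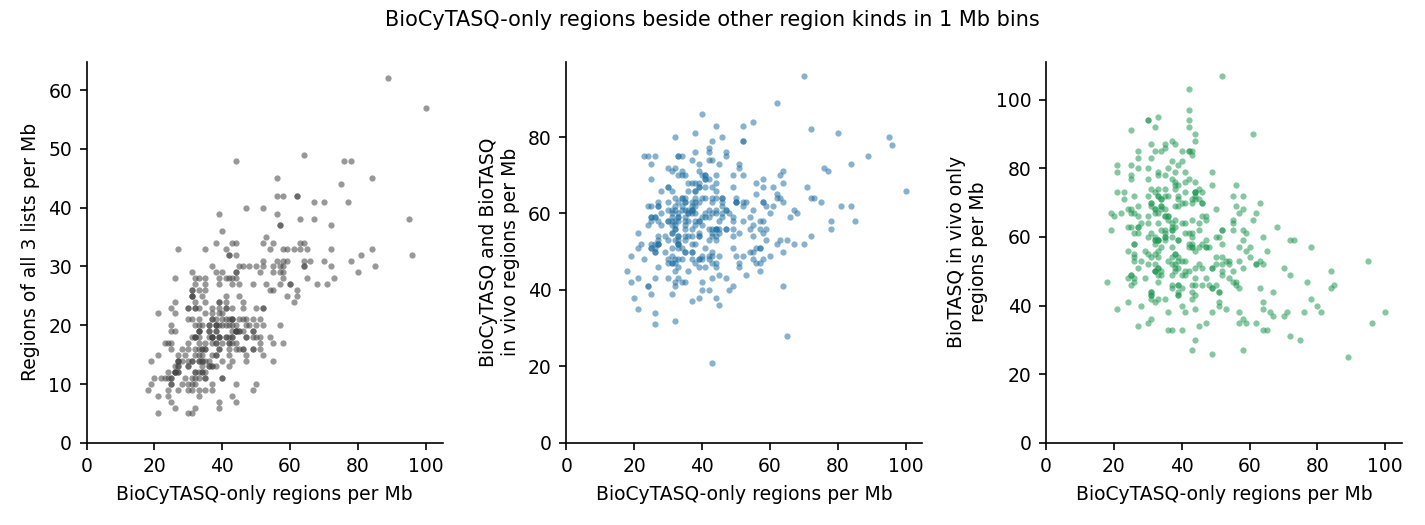
BioCyTASQ-only regions per Mb (horizontal axis) beside regions of all 3 lists (left), of BioCyTASQ and BioTASQ in vivo (middle) and of BioTASQ in vivo alone (right) in 367 full bins of 1 Mb, 1 point per bin. The points rise together on the left (rho 0.637), spread with little slope in the middle (rho 0.218) and fall on the right (rho −0.294).

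Most of the 10 strongest BioCyTASQ-only regions were pieces of wider peaks that the in vivo list shared. By fold enrichment, and at most 1 per 100 kb, the 10 strongest lay on 7 chromosomes with values from 11.9 to 15.2. In 6 of the 10 the deposited summit offset reached beyond the row. The first was at chromosome 1, 33019642 to 33019868, 227 bp wide, with a fold enrichment of 15.2 and a summit offset of 4347 bp. Another row with the same peak name and the same fold enrichment started 178 bp further on, at 33020047 to 33024385, and this row of 4339 bp was in the in vivo list as well. The deposited value of 15.2 therefore does not belong to a summit within the 227 bp.

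Such a partner row was found for 7 of the 10, this region included. The regions at chromosome 6, 22458257 to 22458638 (fold enrichment 13.4), chromosome 8, 1896822 to 1897020 (13.3), chromosome 5, 21992782 to 21993059 (13.1), chromosome 3, 14394287 to 14394644 (12.5), chromosome 5, 24745218 to 24745393 (12.1), and chromosome 7, 20244399 to 20245239 (11.9), each carried the peak name of another row that lay 176 to 226 bp away. All of those other rows were shared with BioTASQ in vivo alone, and the widest of them was 4534 bp. The chromosome 7 region was the last piece of its peak, with an offset of 356 bp. Counted from the start of the peak, that falls in the other row of 897 bp, so the 11.9 does not belong to a summit in the region. The peaks had thus been split after calling, and the smaller piece fell outside the in vivo rows.

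The other 3 of the 10 carried a peak name of their own and had a summit offset within the row. The region at chromosome 11, 28769539 to 28769922, had a fold enrichment of 12.6 on 114 fragments over a control level of 8.14, and an in vivo row lay 328 bp away. The region at chromosome 1, 41808490 to 41809506, had 12.5 on 126 fragments and an in vivo row 167 bp away. The region at chromosome 8, 9815613 to 9816166, had 12.04 on 109 fragments, with the nearest in vivo row at 9308 bp and the nearest BG4/BioTASQ in vitro row at 17762 bp. Of these, the chromosome 8 region stood farthest from any other capture.

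Over all regions the pieces that could be recognised were a small part. The summit offset reached beyond the row in 642 BioCyTASQ-only rows (4.06%), against 362 shared rows (1.06%), and in 21 of the 100 strongest. Among rows shared by the BG4/BioTASQ in vitro list alone it was 3.05%. The peak name stood on more than 1 row in 481 regions (3.04%), against 357 shared rows (1.05%) and 2.62% of those shared by the BG4/BioTASQ in vitro list alone. Among those 481 regions, 167 had another row of that name in a shared region. Gaps between rows of the same name ran from 175 to 1104 bp with a median of 202 bp. The step that made them is not stated in the labels. A piece with a small offset and a name on no other row shows neither sign, so pieces may be more numerous.

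Peaks had also been cut or taken out in the in vivo list, which bears on absence from it. The summit offset reached beyond the row in 13208 in vivo rows (23.0%), against 1004 (2.01%) of all BioCyTASQ rows and 0 in the BG4/BioTASQ in vitro list. Of the BioCyTASQ-only regions, 15 lay between 2 in vivo rows of the same peak name, and so in a stretch cut out of that peak. Whether other parts cut from in vivo rows overlapped the regions was not tested. The peak caller numbers its peaks along each chromosome, and in both other lists the numbers ran in order. Between the in vivo rows on either side of a BioCyTASQ-only region at least 1 number was missing for 9493 of the 15777 regions with such rows on both sides (60.2%), and none for 6284 (39.8%). The 6284 include the 15 regions between rows of the same name. Stretches with a missing number made up 57.6% of the length between in vivo rows, so the share of the regions was close to that of the list as a whole. Where the removed peaks lay within these stretches is not recorded, and whether they overlapped the regions was not tested. In the BG4/BioTASQ in vitro list a number was missing for 165 of 15782 regions (1.05%).

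Regions with no missing number in either list, those between in vivo rows of the same name included, were 6186 (39.2%). They had a median fold enrichment of 3.17 and a median control level of 9.41 fragments, against 3.45 and 9.98 for regions with a missing number. A fold enrichment of at least 8 was found in 66 of the 6186 and in 239 of the other 9578. Regions with a summit offset beyond the row or a BioCyTASQ peak name on several rows were then left out as well. This left 5798 regions (36.7%), among which pieces with neither sign may remain. The 5798 regions had a median fold enrichment of 3.16 and 53 of at least 8. Their strongest, picked after the values were seen, was at chromosome 9, 180302 to 180664, with a fold enrichment of 11.5 on 107 fragments, 5800 bp from an in vivo row and 12252 bp from a BG4/BioTASQ in vitro row. The next were at chromosome 2, 32077802 to 32078711, with 11.1, and chromosome 8, 24146369 to 24146783, with 11.1. In vivo rows lay 234 and 1785 bp from them. Then came chromosome 1, 900395 to 900828, with 10.8, and chromosome 1, 17436858 to 17437200, with 10.5. In vivo rows lay 408 and 3160 bp from these.

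Positions are 1-based on the genome build of the lists, and the sources used here do not name that build. Genes, promoters, guanine-rich motifs and base composition at the regions were therefore not analysed here.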

How the data were processed

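Each deposited list has 10 columns, ordered as in MACS2 narrow peaks, and no header. MACS2 2.1.1, SAMtools 1.5, Trim Galore 0.4.4, Picard and BWA are in the submitters' processing notes, with no role stated. The build, the controls, the threshold and any pooling of replicates are not stated there. The deposited score is derived from the −log10 q, and was not used. The deposited fold enrichment is the authors' ratio of a peak to its control. The −log10 p and −log10 q are deposited values of the authors' peak caller and were used as they stand. The summit offset is the deposited distance from peak start to summit. Pieces of a split peak can carry the offset of the whole peak, so it need not count from the start of the row.

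In the BG4/BioTASQ in vitro list 26 rows repeated others and were left out, and rows that overlapped by at least 1 bp were joined. A row was taken as cut where its summit offset was as large as its width or larger. Later pieces of a split peak with a smaller offset are not caught by this, so cut rows may be more numerous. Pileup and control level were solved from fold enrichment and −log10 p under the Poisson formulas of MACS2, and whole pileups came out for 100% of BioCyTASQ rows within 0.001 on the −log10 p scale. Read depth per library was not analysed here.

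Chromosome length was the largest row end of any list. No test was run, since each list pools its libraries and no measure independent of the choice of regions was left. The planned comparisons of base composition, motifs and genes needed a genome of the lists' build. The members and rules were chosen with earlier results of these data known. The rule named the 10 strongest regions (at most 1 per 100 kb), the 3 farthest, the 3 widest, the 5 strong ones with the smallest gaps and the 3 richest 1 Mb bins. Joining, gaps, missing numbers and pileups were tested on simulated data. The tools were SciPy 1.17.1, Matplotlib 3.10.9, pandas 2.3.3, NumPy 2.4.6 and Python 3.11.15.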

Additional observations from a re-analysis of the deposited data

How the results depend on the processing

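The number of BioCyTASQ-only regions depended on how absence was defined. It stayed within 1.5 times of 15797 under 7 of 9 alternatives, and was 10489 with rows at most 500 bp apart joined and 38309 without the BioTASQ in vivo list. Their share of BioCyTASQ rows, 31.7%, left its exact 95% binomial interval (31.3% to 32.1%, counting error only) under all 9 alternatives. That interval takes neighbouring rows as independent, and it does not measure the spread between rules applied to the same lists. The share was 35.0% with overlap of 50% of the shorter row, 22.6% with the 500 bp gap and 38.9% without cut rows. It was 30.9% at a −log10 q of at least 3 in every list and 44.4% with 200 bp windows at the summits. Among alternatives added after the data were examined, it was 31.2% with rows of the same peak name rejoined, 76.8% without the in vivo list, 39.7% without the BG4/BioTASQ in vitro list and 43.6% with the 29443 strongest rows of each list. The median fold enrichment ran from 3.24 to 4.88. The median gap to the nearest row of another list, 1141 bp, ran from 880 bp with 200 bp windows at the summits to 4432 bp without the in vivo list. For these shares and medians the cause was not tested. No paired analysis was possible because each list pools its libraries, and for the same reason no replicate could be left out. The alternatives for base composition, motifs and genes were not run, for want of a genome of the build, and the gap was not computed for overlap of 50% of the shorter row.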
